A study of Mus musculus with 16 samples.

Results

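Gdf15 (growth differentiation factor 15) encodes a small secreted protein of the transforming growth factor beta superfamily. It was followed here as 1 gene of the 14138 listed in the first count table and 1 of the 17831 listed in the second. The gene was chosen because it is among those highest in CPT2-deficient hearts relative to wild type hearts. Its levels in that contrast are therefore given as a description without a test, and the tests below concern the second comparison and other genes.

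The libraries were made from total RNA of 16 mouse hearts. The first table holds 5 wild type hearts and 5 CPT2H-KO hearts, in which carnitine palmitoyltransferase 2, the enzyme that hands long-chain fatty acids to mitochondrial beta-oxidation, was deleted in cardiomyocytes. The second table holds 3 CPT2 single KO hearts, given the same CPT2H-KO genotype in the labels, and 3 CPT2/USP30 double KO hearts, which also lack USP30, a deubiquitinase that opposes the clearance of mitochondria. All 6 hearts of the second table thus lack CPT2 in cardiomyocytes, and the table has no wild type heart. The Cre driver is given for the USP30 allele (Myh6-Cre with USP30fl/fl, a heart muscle promoter) but not for the CPT2 allele. No source used here gives the age or sex of the mice. The 10 libraries of the first table totalled 54674422 to 132762776 counts each, and the 6 of the second 11067969 to 13532716.

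Cells raise Gdf15 transcription when the integrated stress response is active: kinases of the translation factor eIF2alpha slow protein synthesis, and the transcription factors ATF4 and DDIT3 then switch on stress genes. Failing mitochondria are known to reach this pathway through the protease OMA1, the messenger protein DELE1 and the eIF2alpha kinase HRI, the product of Eif2ak1. The GDF15 precursor is cut by furin-type convertases, and the released hormone lowers food intake through the receptor GFRAL and its partner RET in the hindbrain. Injured and failing hearts are a known source of circulating GDF15.

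Mouse Gdf15 lies on the minus strand of chromosome 8, from 70629393 to 70632456 on GRCm38 (the mm10 assembly), as annotated in GENCODE M21. Its 2 annotated transcripts share the coding exons and differ in their first exon, so gene-level counts cannot separate them. The nearest genes are Lrrc25, 7909 bases away, and Pgpep1, 13978 bases away, and no annotated gene overlaps Gdf15. Neither neighbour was called in CPT2H-KO hearts (log2 fold changes -0.37 and 0.12, the latter below 0 under library totals and the atrial covariate). The RefSeq promoter table (GRCm38.p6) gives the sequence just upstream of the farther start, chr8:70632471-70632706 on the minus strand. It is shown because ATF4 target genes rose in the same hearts in which Gdf15 was high:

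Gdf15 upstream sequence: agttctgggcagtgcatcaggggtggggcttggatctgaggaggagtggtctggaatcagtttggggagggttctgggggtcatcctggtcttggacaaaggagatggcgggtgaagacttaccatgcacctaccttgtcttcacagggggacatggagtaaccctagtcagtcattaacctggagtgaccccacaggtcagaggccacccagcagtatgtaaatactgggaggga

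A search on both strands for the C/EBP-ATF response element, the composite site to which ATF4 binds (written TGATGNAAN), found no match in these 236 bases. The cAMP response element (TGACGTCA), the CCAAT box (CCAAT), the TATA box (TATAAA), the GC box (GGGCGG), the AP-1 site (TGANTCA), the E-box of TFEB and TFE3 (CACGTG), the antioxidant response element (TGACNNNGC) and the p53 decamer were not matched either. The absence of these letters describes this window alone. In the RefSeq window of the nearer start, which ends at 70632095, the CCAAT box was matched at chr8:70632097-70632101 and the E-box at chr8:70632173-70632178, the latter inside the first exon of the other transcript. The other motifs, the C/EBP-ATF letters included, had no match there. Over all mouse genes in the RefSeq table, 4.5% of 27025 had the C/EBP-ATF letters in a promoter window of 250 bases before to 50 after a start. Of the ATF4 targets listed below, 26 were in the table and 10 of them had these letters. Among these 10, Nupr1 and Vldlr were not called in CPT2H-KO hearts (log2 fold changes 0.795 and 0.0211), and Fgf21 and Slc7a11 were not tested. The sites of 5 of the 6 called higher are printed with the match in capitals, each on the strand that carries it:

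Asns: cagccacaTGATGAAACttcccgca
Trib3: cgcccggcTGATGTAAAcctgagct
Chac1: ggcaggagTGATGCAACggcaggga
Pycr1: cctgtgtaTGATGCAATgcacaagg
Gars: ccggtgcaTGATGAAATagcgcagc

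In Asns the match lies at chr6:7693224-7693232, in Trib3 at chr2:152344039-152344047, in Chac1 at chr2:119351048-119351056, in Pycr1 at chr11:120643843-120643851 and in Gars at chr6:55037970-55037978 (GRCm38.p6). The match begins 23, 194, 103 and 31 bases before the annotated start in Asns, Chac1, Pycr1 and Gars, and 13 bases after it in Trib3.

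In the 5 wild type hearts Gdf15 was near the floor of the table. It stood at 0.353, 0.297, 0.478, 0.360 and 1.32 CPM in wild type 1 to 5 (the count scaled by the TMM-adjusted library total), from 31, 25, 69, 56 and 80 counts. The 95% exact Poisson interval of wild type 5, 1.048 to 1.645 CPM, did not reach those of the other 4 hearts, whose highest bound was 0.605 CPM. These intervals cover counting error only. In the 5 CPT2H-KO hearts Gdf15 stood at 14.5, 11.2, 28.5, 24.7 and 26.1 CPM, from 734, 674, 1402, 1819 and 3034 counts. CPT2H-KO 1 and 2 formed the lower end and CPT2H-KO 3, 4 and 5 the upper end.

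The groups did not overlap: the lowest CPT2H-KO heart, at 11.2 CPM, was 8.44 times the highest wild type heart. The group means were 0.562 ± 0.430 CPM among wild type and 21.0 ± 7.67 CPM in CPT2H-KO (SD, n = 5 each). The ratio of these group means was 37.3. The fitted log2 fold change was 5.31 (SE 0.44), the 7th largest rise among 14123 genes tested. In this comparison 33.7% of all genes tested passed an adjusted p of 0.05 (edgeR quasi-likelihood test with Benjamini-Hochberg adjustment), with 16.7% of genes tested higher and 17% lower, and 24.7% had groups that did not overlap. Because the gene was chosen from this contrast, nothing is read from its place among these shares. In whole-heart RNA, more RNA per cell and more cells that make it cannot be told apart.

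In the second table Gdf15 stood at 25.8, 81.4 and 34.4 CPM in CPT2 single KO 1 to 3, from 317, 1087 and 376 counts. It stood at 135.5, 57.3 and 44.7 CPM in CPT2/USP30 double KO 1 to 3, from 1633, 692 and 552 counts. Single KO 2 lay above double KO 2 and 3, so the groups overlapped, and double KO 1 was the highest of the 6 hearts. All 6 hearts carried at least 317 Gdf15 counts although their libraries were shallower.

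**Figure D1:**
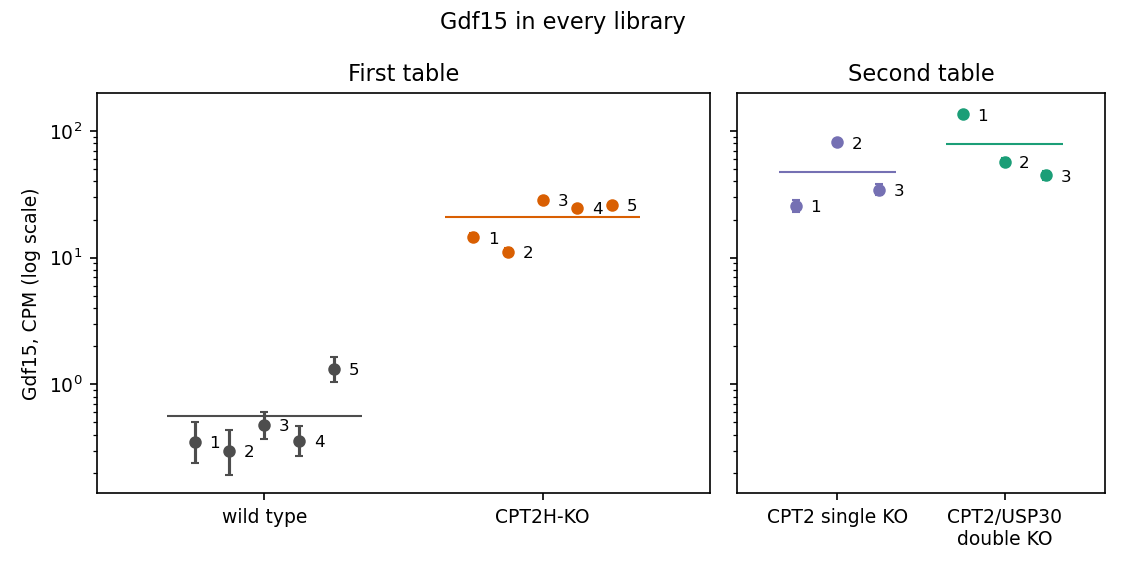
Gdf15 in CPM (log axis) in each of the 16 hearts, numbered by replicate; points are libraries, vertical bars 95% exact Poisson intervals of the counts, horizontal lines group means. The 5 CPT2H-KO hearts sit between 11.2 and 28.5 CPM, above all wild type hearts (0.297 to 1.32 CPM), while single KO (25.8 to 81.4 CPM) and double KO hearts (44.7 to 135.5 CPM) overlap.

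CPM cannot be set side by side between the tables, since the first contains mitochondrially encoded genes and the second lists none. As CPM of the summed counts of the 12329 nuclear genes that both tables list, Gdf15 averaged 1.65 ± 1.26 in wild type, 61.9 ± 23.2 in CPT2H-KO, 47.7 ± 29.6 in CPT2 single KO and 80.9 ± 52.2 in double KO hearts (SD, n = 5, 5, 3 and 3). The order by mean was wild type, single KO, CPT2H-KO and double KO, and neighbours among the last 3 differed by less than either SD. The single KO hearts (26.9 to 81.6) and the CPT2H-KO hearts (34.1 to 83.8) covered nearly the same range on this scale, and double KO hearts ran from 46.5 to 141. The tables were prepared and counted separately, so these levels were not tested against each other. They also differed in blood transcripts, for which the shared-gene scale does not adjust. The summed level of 6 red blood cell markers was 21.6 to 207 CPM in the first table and 4555 to 10042 CPM in the second. The lowest heart labelled as lacking CPT2 in either table, at 26.9, lay above the highest wild type heart, at 3.88.

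Per kilobase of exon, Gdf15 ranked at the 7.83 to 29.9 percentile of 13708 genes in wild type hearts and at the 84.5 to 94.0 percentile in CPT2H-KO hearts. It ranked at the 76.9 to 92.4 percentile of 12849 genes in single KO hearts and at the 86.2 to 95.3 percentile in double KO hearts. On this per-length scale every CPT2H-KO heart ranked Gdf15 above every wild type heart. The percentiles of the second table come from another set of genes, so they cannot be set beside those of the first.

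The second comparison asks whether loss of USP30 in hearts that already lack CPT2 goes with a different Gdf15 level. The means were 47.2 ± 29.9 CPM among single KO and 79.2 ± 49.2 CPM among double KO hearts (SD, n = 3 each). The log2 fold change was 0.74 (SE 0.48, 95% interval -0.33 to 1.82), with an edgeR p of 0.154 and an adjusted p of 0.811 over 12997 genes. The interval holds both no difference and a rise of more than 3-fold, so a difference was not detectable with these 3 hearts a group. Single hearts moved the estimate: the log2 fold change was 0.11 without double KO 1 (edgeR adjusted p = 0.972), 0.44 without single KO 1 (edgeR adjusted p = 0.9225) and 1.39 without single KO 2 (edgeR adjusted p = 0.827). In this comparison 0% of the genes tested passed the adjusted threshold with edgeR, 942 had an unadjusted p under 0.05, limma-voom called 0 and DESeq2 called 123. Usp30, the targeted gene, stood at 18.5, 22.8 and 21.7 CPM among single KO and 10.3, 10.4 and 7.45 CPM among double KO hearts, without overlap (log2 fold change -1.16, SE 0.18, edgeR adjusted p = 0.147). Usp30 was called lower with DESeq2 (-1.18, DESeq2 adjusted p = 2.454e-04) and without double KO 1 (-1.235, edgeR adjusted p = 0.0218).

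Markers of atrial muscle moved with the groups of the second table. The summed level of Myl7, Myl4, Sln, Bmp10 and Dkk3 was 11.9, 19.8 and 12.6 CPM in single KO 1 to 3 and 42.5, 442.5 and 1713 CPM in double KO 1 to 3. The double KO heart with the most Gdf15 had the least of these transcripts in its group. With an atrial covariate in the fit the log2 fold change of Gdf15 was 1.95 (edgeR adjusted p = 0.086). Counts of 4 Y-linked genes were at background in all 3 double KO hearts and in single KO 3 only, and with a sex term the log2 fold change was 1.20 (edgeR adjusted p = 0.7305). The atrial sums separated the groups, and single KO 3 alone shared the Y-linked state of the double KO hearts. Genotype, atrial tissue and sex can therefore not be reliably told apart in the second table. In the first table the atrial sum was 67.3 to 619 CPM among wild type and 4.96, 6.21, 10.8, 75.3 and 540 CPM in CPT2H-KO hearts, and the log2 fold change of Gdf15 with the covariate was 5.25. The Y-linked sum of the first table was at background in wild type 1 and in CPT2H-KO 1 and 3 (0.308, 0.119 and 0.203 CPM). With a sex term the log2 fold change of Gdf15 there was 5.35.

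Other cell types were checked in the same way, beside 16.7% of all genes called higher and 17% called lower in CPT2H-KO hearts. Of the 10 macrophage markers 0 passed the edgeR test in CPT2H-KO hearts, and their summed level was 181 to 226 CPM among wild type and 131 to 237 CPM in CPT2H-KO. Of the 7 fibroblast markers 3 were higher, with sums of 693 to 1086 CPM and 1031 to 1804 CPM. Of the 8 cardiomyocyte markers 5 were lower, with sums of 53568 to 61343 CPM and 49281 to 57263 CPM, and these transcripts were abundant in every heart. Of the 5 smooth muscle and pericyte markers 2 were lower, and their sums did not overlap, at 495 to 575 CPM and 363 to 429 CPM. Between single and double KO hearts 2 sums did not overlap: the endothelial sum was 1190.0 to 1320.0 CPM in the former and 904 to 1078 CPM in the latter, and the red blood cell sum 8129 to 10042 CPM and 4555 to 7763 CPM. Of the 6 markers of each, 0 were called. Taken singly, 24.7% of all genes tested had groups without overlap in the first comparison and 11.8% in the second. The part of these markers in the level of Gdf15 was not tested.

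Cpt2 itself was at 86.9, 89.9, 85.5, 74.0 and 52.96 CPM among wild type and 30.4, 42.0, 42.1, 42.8 and 44.9 CPM in CPT2H-KO hearts (log2 fold change -0.95, SE 0.15, edgeR adjusted p = 9.71e-04). Wild type 5, the control heart with the most Gdf15, had the lowest Cpt2 of its group. The CPT2H-KO heart with the lowest Cpt2, number 1, had the second lowest Gdf15. In the second table Cpt2 was 164 to 182 CPM among single KO and 166 to 189 CPM among double KO hearts. With no wild type heart in that table, how far Cpt2 RNA was reduced there could not be read. Cpt2 was not put on the shared-gene scale used for Gdf15, so loss of CPT2 in these hearts rests on their labels.

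Among 14 transcription factors reported to act on Gdf15, 4 rose and 1 fell in CPT2H-KO hearts (edgeR, adjusted over all genes), and the median log2 fold change was 0.14 beside -0.0073 over all genes tested. These 5 calls of 14 are near the 33.7% called over all genes, so the count itself says nothing particular of the list. It rose to 8 with library totals. Atf4, the main effector of the integrated stress response, stood at 31.8, 28.2, 32.7, 26.7 and 35.5 CPM among wild type and 60.9, 52.3, 45.1, 47.1 and 74.1 CPM in CPT2H-KO hearts. The groups did not overlap, and the difference on the log2 scale was 0.85 (SE 0.14, edgeR adjusted p = 0.00108). Hif1a, the oxygen-sensing factor, rose by 1.08 on the log2 scale (SE 0.10), and Egr1, an immediate early gene, by 2.20 (SE 0.46), although CPT2H-KO 2 lay inside the wild type range for Egr1. Xbp1, a factor of the endoplasmic reticulum stress response, fell by 0.51 (SE 0.14), a call that was lost with the atrial covariate (edgeR adjusted p = 0.163).

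Atf3, a stress-induced partner of these factors, was at 33.9, 3.41, 5.78, 6.24 and 75.9 CPM in CPT2H-KO hearts and 3.16 to 7.51 CPM in wild type. Its rise of 2.33 (SE 0.78, edgeR adjusted p = 0.0390) came from CPT2H-KO 1 and 5, the other 3 hearts lay inside the wild type range, and its call was lost without any one of the 5 wild type hearts, CPT2H-KO 1 or CPT2H-KO 5 (log2 fold change 1.29 without CPT2H-KO 5). It was also lost with the replicate block (1.416, edgeR adjusted p = 0.197) and with limma-voom (1.54, adjusted p = 0.162). Ddit3, which encodes CHOP, differed by 0.28 (SE 0.20, edgeR adjusted p = 0.318), and Trp53 by 0.14 (SE 0.15, edgeR adjusted p = 0.4998). Neither of these passed the test.

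Of 10 genes for eIF2alpha kinases, their counteracting phosphatase subunits and the mitochondrial relay, 2 rose and 3 fell, with a median of 0.18, where 33.7% of all genes were called in 1 direction or the other. The 5 calls became 3 without wild type 2 and with library totals. Eif2ak3, the kinase PERK, rose by 0.45 (SE 0.09), and Ppp1r15b, a phosphatase subunit, rose by 0.27 (SE 0.07). The 3 that fell were the mitochondrial members: Oma1 by 0.46 (SE 0.09), the relay gene Dele1 by 0.36 (SE 0.12) and the protease gene Yme1l1 by 0.26 (SE 0.07). Oma1 stood at 11.7, 12.4, 13.2, 11.8 and 11.0 CPM among wild type and 7.63, 8.06, 9.87, 9.40 and 8.90 CPM in CPT2H-KO hearts, with no overlap. Eif2ak1, the HRI gene, differed by 0.08 (SE 0.07, edgeR adjusted p = 0.380). Relay proteins act by cleavage and binding, which transcript counts do not measure. The call on Dele1 was lost without wild type 1, 2, 3 or 4 or CPT2H-KO 2, and that on Yme1l1 without wild type 2 (log2 fold changes -0.34 to -0.37 and -0.24). Both calls were also lost with the atrial covariate (edgeR adjusted p = 0.103 and 0.178), that on Dele1 with the replicate block (-0.38, edgeR adjusted p = 0.0577) and the sex term (-0.36, edgeR adjusted p = 0.0553), and those on Eif2ak3 and Ppp1r15b when libraries were scaled by their totals alone (log2 fold changes 0.18 and 0.01, edgeR adjusted p = 0.248 and 0.967).

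Of 30 listed ATF4 target genes 27 were tested, 18 rose and 3 fell in CPT2H-KO hearts, with a median log2 fold change of 0.99. Over all genes tested 16.7% were called higher and 17% lower. The ATF4 list was assembled with earlier results of these hearts known, so its direction is no independent evidence. Mthfd2, of mitochondrial folate metabolism, rose by 3.59 (SE 0.27), and Asns, asparagine synthetase, by 3.19 (SE 0.31). Trib3, a pseudokinase that feeds back on ATF4, rose by 2.76 (SE 0.47, and by 2.17 without CPT2H-KO 1), and Slc7a5, an amino acid transporter, by 2.43 (SE 0.30). Aldh18a1, of proline synthesis, rose by 1.59 (SE 0.14), and the tRNA synthetase genes Aars and Cars both rose by 0.99 (SE 0.11 each). The 3 that fell were Gpt2, Psph and Cth, enzymes of alanine, serine and cysteine synthesis. Fgf21 and Slc7a11 were not analysed in the first table. Of the 8 tested targets with the C/EBP-ATF letters in a promoter window, 6 rose and 0 fell (median 1.18), and of the 15 tested without them 9 rose and 2 fell (median 0.81). The difference between these subsets was not tested.

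**Figure D2:**
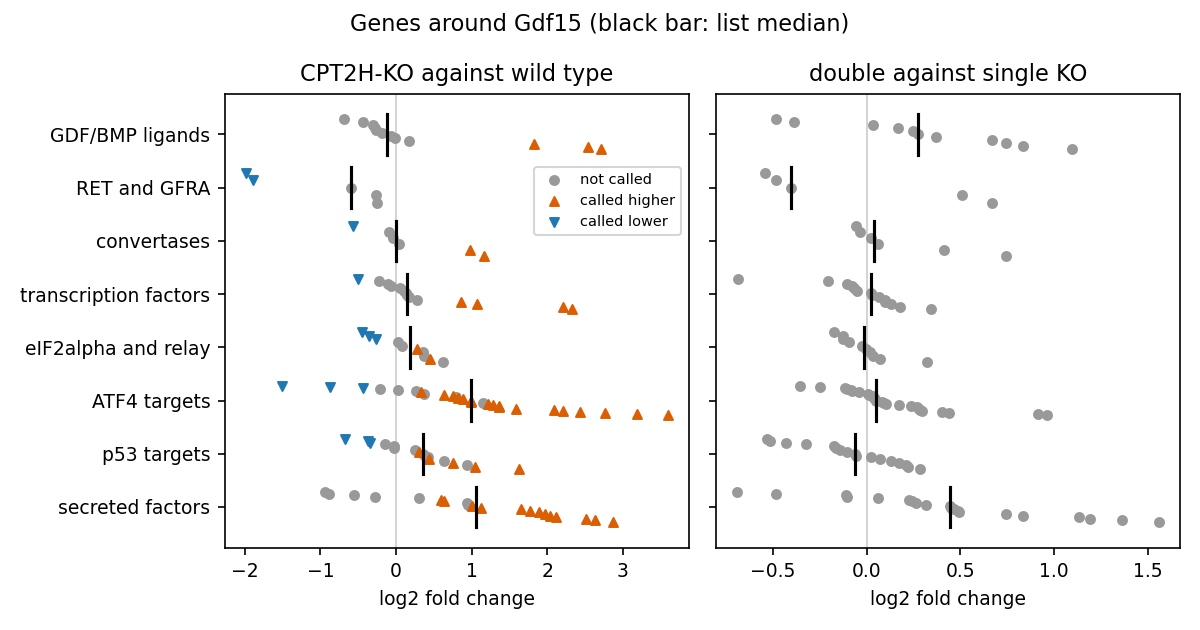
Log2 fold changes of the members of 8 gene lists in both comparisons; each point is a gene, triangles mark genes with an edgeR adjusted p under 0.05, and black bars are list medians. In CPT2H-KO hearts the ATF4 target and secreted factor lists have medians of 0.99 and 1.06, and in the second comparison 0 members of any list are called.

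Gdf15 and the ATF4 targets named above did not rank the 5 knockout hearts alike. Asns was at 21.0, 10.2, 6.35, 7.403 and 12.5 CPM in CPT2H-KO 1 to 5, Mthfd2 at 30.4, 16.04, 12.8, 14.5 and 18.2 CPM, and Trib3 at 12.96, 2.47, 2.52, 2.70 and 6.69 CPM. CPT2H-KO 1 had the most of all 3, yet its Gdf15 was second lowest. CPT2H-KO 3 had the most Gdf15 and the least Asns and Mthfd2. CPT2H-KO 1 and 3 were also the knockout hearts with Y-linked counts at background (0.119 and 0.203 CPM, against 82.1 to 105 CPM in CPT2H-KO 2, 4 and 5). The part of sex in these rankings was not tested. Chac1, a glutathione-degrading enzyme of the same response, was highest in CPT2H-KO 5, at 13.8 CPM against 4.29 to 5.75 CPM in the other 4. CPT2H-KO 1 was the heart that stood apart from its group most often: it was highest in 31.1% and lowest in 33% of all genes tested.

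**Figure D3:**
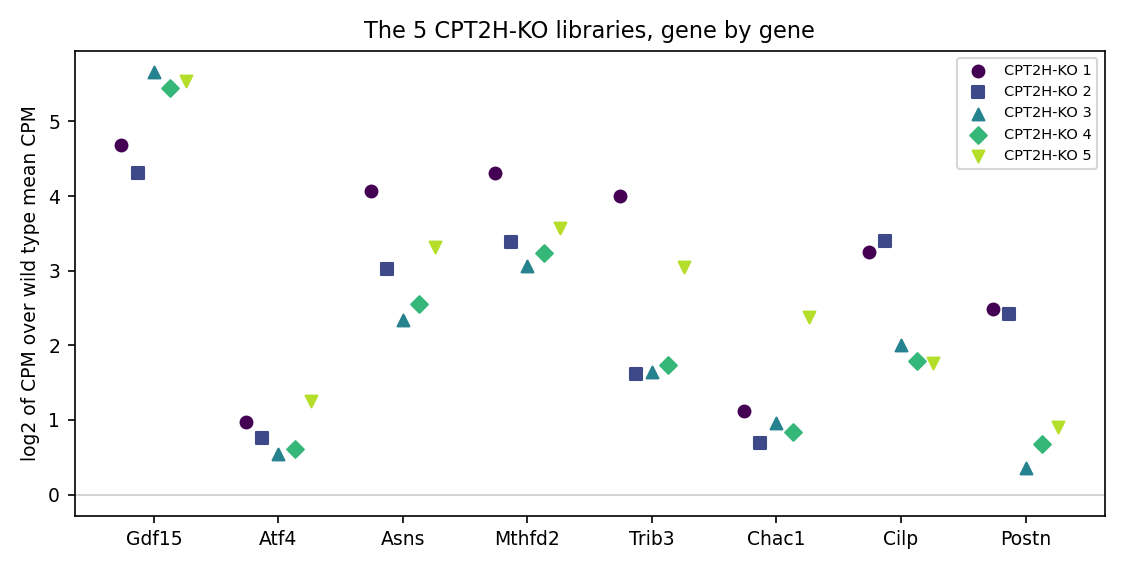
Log2 ratio of CPM in each of the 5 CPT2H-KO hearts to the wild type mean for 8 genes; each symbol is one heart and 0 is the wild type mean. CPT2H-KO 1 is highest for Asns (21.0 CPM), Mthfd2 (30.4 CPM) and Trib3 (12.96 CPM) and second lowest for Gdf15 (14.5 CPM).

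Calls numbered 3 among the 6 convertase genes tested and 2, both lower, among the 5 RET and GFRA genes tested. Over all genes 33.7% were called, and the receptor gene Gfral was not among those tested. Of 6 convertase genes tested, Pcsk4 and Pcsk5 rose (1.16, SE 0.30, and 0.98, SE 0.30) and Pcsk6 fell by 0.57 (SE 0.12), while Furin, the main enzyme of this type, was at 34.3 ± 3.27 and 32.1 ± 6.67 CPM (SD, n = 5 each, log2 fold change -0.10, SE 0.13, edgeR adjusted p = 0.603). The call on Pcsk5 was lost without wild type 1, 2 or 5, with library totals (0.68, edgeR adjusted p = 0.0619), with the sex term (0.81, edgeR adjusted p = 0.0548) and with limma-voom (0.74, adjusted p = 0.0503), and that on Pcsk4 with the atrial covariate (edgeR adjusted p = 0.0773). Scaled by library totals, Furin was called lower (log2 fold change -0.39, edgeR adjusted p = 0.0171). Of the receptor genes, Gfral was not analysed here in either table. Ret, its signalling partner, fell by 1.90 (SE 0.34), from 3.94, 3.88, 5.11, 6.73 and 4.28 CPM in wild type to 0.573, 0.629, 1.51, 2.25 and 1.41 CPM in CPT2H-KO hearts without overlap. Gfra4, which encodes another RET co-receptor, fell by 1.98 (SE 0.16), and Gfra1, Gfra2 and Gfra3 were not called. All 5 tested genes of this list had a log2 fold change below 0, with a median of -0.60.

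Other ligands of the superfamily did not follow Gdf15 as a group. Of 22 listed GDF, BMP and inhibin genes 12 were tested, 3 rose, 0 fell and the median log2 fold change was -0.12, a share of calls below the 33.7% of all genes. Without CPT2H-KO 5 the calls numbered 5, with Bmp2 then lower (-0.92, edgeR adjusted p = 0.0182), and Bmp2 was also called lower with library totals (-0.98, edgeR adjusted p = 0.0124). Bmp7 rose by 2.54 (SE 0.20), from 0.672 to 1.11 CPM in wild type to 4.02 to 7.43 CPM in CPT2H-KO hearts. Gdf6, a growth factor of joint formation, rose by 2.71 (SE 0.59), and Inhbb, an activin subunit, by 1.82 (SE 0.48). CPT2H-KO 1 alone had 4.49 CPM of Gdf6 and 9.86 CPM of Inhbb, and without it the log2 fold changes were 1.86 and 1.08.

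The p53 pathway is another known route to Gdf15. Of its 17 targets tested 5 rose and 3 fell, with a median of 0.35, where 33.7% of all genes were called. The count fell from 8 to 5 without wild type 3, without CPT2H-KO 3 and with the sex term. Cdkn1a, the p21 cell cycle inhibitor, rose by 1.62 (SE 0.40), Zmat3 by 1.04 (SE 0.15) and Phlda3 by 0.75 (SE 0.08), while Ccng1 fell by 0.68 (SE 0.10). Phlda3 was at 6.33 to 8.16 CPM among wild type and 11.0 to 12.2 CPM in CPT2H-KO hearts.

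Gdf15 was also one of several secreted stress factors of the heart that were higher. Of 20 tested, 13 rose and 0 fell, with a median of 1.06, where 16.7% of all genes were called higher and 17% lower. This list was also assembled with earlier results of these hearts known, so its direction is no independent evidence. Cilp, a matrix protein of scarring heart, rose by 2.63 (SE 0.35), Angptl4, a lipase inhibitor, by 2.52 (SE 0.48), Nppb, the B-type natriuretic peptide, by 2.04 (SE 0.40) and Spp1, osteopontin, by 2.87 (SE 0.62). Igf1 rose by 1.00 (SE 0.19). Cilp was at 125, 139, 52.8, 45.8 and 44.8 CPM in CPT2H-KO 1 to 5 and 10.7 to 17.0 CPM in wild type. Cilp and Postn, a matrix protein of activated fibroblasts (268, 255, 60.7, 76.1 and 89.4 CPM), were highest in CPT2H-KO 1 and 2, the hearts with the least Gdf15 of the group.

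In the second comparison 0 members of the 8 lists passed the edgeR test. Among the 20 secreted factors tested 16 lay above 0 and the median on the log2 scale was 0.45; the 27 ATF4 targets had a median of 0.05 and all genes one of 0.0027. Spp1 was at 0.374 to 0.895 CPM among single KO and 1.57 to 2.43 CPM among double KO hearts, without overlap (log2 fold change 1.56, SE 0.43, edgeR adjusted p = 0.381). Btg2, a p53 target, was lower without overlap (log2 fold change -0.51, SE 0.15, edgeR adjusted p = 0.404). Groups did not overlap for 11.8% of all genes tested in this comparison, 6.69% higher and 5.07% lower in double KO hearts. Atf4 was at 123, 157 and 109 CPM among single KO and 169, 135 and 121 CPM among double KO hearts (log2 fold change 0.13, SE 0.19, edgeR adjusted p = 0.937). The highest heart of each group for Atf4 was also the highest for Gdf15. Atf3 ran the other way between groups, at 6.10, 12.0 and 8.34 CPM among single KO and 6.31, 4.55 and 5.59 CPM among double KO hearts (log2 fold change -0.68, SE 0.28, edgeR adjusted p = 0.623).

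To find genes whose variation between hearts of a group resembled that of Gdf15, the mean log2 CPM of each group was subtracted and Pearson's r with Gdf15 was taken over the 10 hearts of the first table and the 6 of the second, for 9721 genes. The points share libraries and depth, the group means cost degrees of freedom, and r is a description. Within groups Gdf15 varied with an SD of 0.72 on the log2 scale in the first table and 0.85 in the second. The median r over all genes was 0.011 in the first table and -0.12 in the second, and 0.36% and 4.45% of genes reached an r of 0.8.

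Mafg was the only gene of the 9721 with an r of at least 0.8 in both tables, 0.87 and 0.90 (Spearman's rho 0.65 and 0.89). Among the 50 genes most like Gdf15 in the first table, 2% reached 0.8 in the second, beside 4.45% of all genes. One such gene is therefore no more than the general share, and nothing particular is read from its place. Mafg encodes a small MAF protein, a DNA-binding partner of the antioxidant factor NRF2. Mafg was at 15.6, 14.3, 14.1, 14.5 and 18.8 CPM among wild type and 19.9, 19.99, 21.8, 21.1 and 22.3 CPM in CPT2H-KO hearts. It was at 76.0, 82.7 and 80.5 CPM among single KO and 115, 105 and 98.4 CPM among double KO hearts. Wild type 5 and double KO 1 were the highest of their groups for both Mafg and Gdf15. Without the 2 hearts whose Gdf15 lay farthest from the median deviation (wild type 5 and CPT2H-KO 3; single KO 2 and double KO 1), r was 0.59 and 0.92. On the group contrasts, which this choice did not use, Mafg rose by 0.45 in CPT2H-KO hearts (SE 0.09, edgeR adjusted p = 0.0028) and differed by 0.41 between double and single KO hearts (SE 0.13, edgeR adjusted p = 0.485). Its groups did not overlap in either comparison, as was so for 24.7% of all genes tested in the first and 11.8% in the second. Scaled by library totals its rise in CPT2H-KO hearts was 0.18 (edgeR adjusted p = 0.212). Nfe2l2, which encodes NRF2, had r of 0.64 and 0.80 (0.25 and 0.10 without the 2 farthest hearts of each table) and a log2 fold change of -0.06 in CPT2H-KO hearts (edgeR adjusted p = 0.700).

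The other genes with the highest smaller r of the 2 tables were Myo9b (0.76 and 0.94), Inf2 (0.75 and 0.87), Cpsf4 (0.74 and 0.84), Myh7b (0.83 and 0.72) and Slc9a3r2 (0.72 and 0.80). In the second table each of these rested on the farthest hearts: without them r was -0.03, 0.03, -0.22, -0.37 and -0.10. In the first table r without the farthest hearts was 0.16, 0.35, -0.15, 0.40 and 0.59, in the same order. Those that ran against Gdf15 in both tables were Gpr22 (-0.76 and -0.92), Isy1 (-0.80 and -0.75), Dapp1 (-0.71 and -0.82) and Ebf2 (-0.70 and -0.77). Gpr22, an orphan receptor, was at 34.2, 33.5, 27.6, 24.0 and 17.1 CPM among wild type and 0.827 to 1.29 CPM in CPT2H-KO hearts, a fall of 4.64 on the log2 scale (edgeR adjusted p = 9.85e-07). Wild type 5 had the least Gpr22 of the controls and the most Gdf15, and without the 2 farthest hearts r was -0.71 in the first table and -0.11 in the second.

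The genes closest to Gdf15 in 1 table alone had a lower r in the other. P4ha2, a collagen-modifying enzyme, had an r of 0.97 in the first table and 0.34 in the second, Atp11a 0.92 and -0.57, Ammecr1l 0.91 and -0.17, and Tbc1d9 0.89 and 0.27. Single hearts moved these values: in the second table P4ha2 ran from -0.67 without the 2 farthest hearts to 0.95 without single KO 1. Dpp3, a peptidase, had an r of 0.999 in the second table and -0.13 in the first, Imp4 0.99 and 0.01, Slc35a2 0.99 and 0.28, and Slc37a1 0.99 and -0.12. The 50 genes most like Gdf15 in the first table had a median r of 0.05 in the second, and the 50 most like it in the second had a median r of -0.12 in the first.

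**Figure D4:**
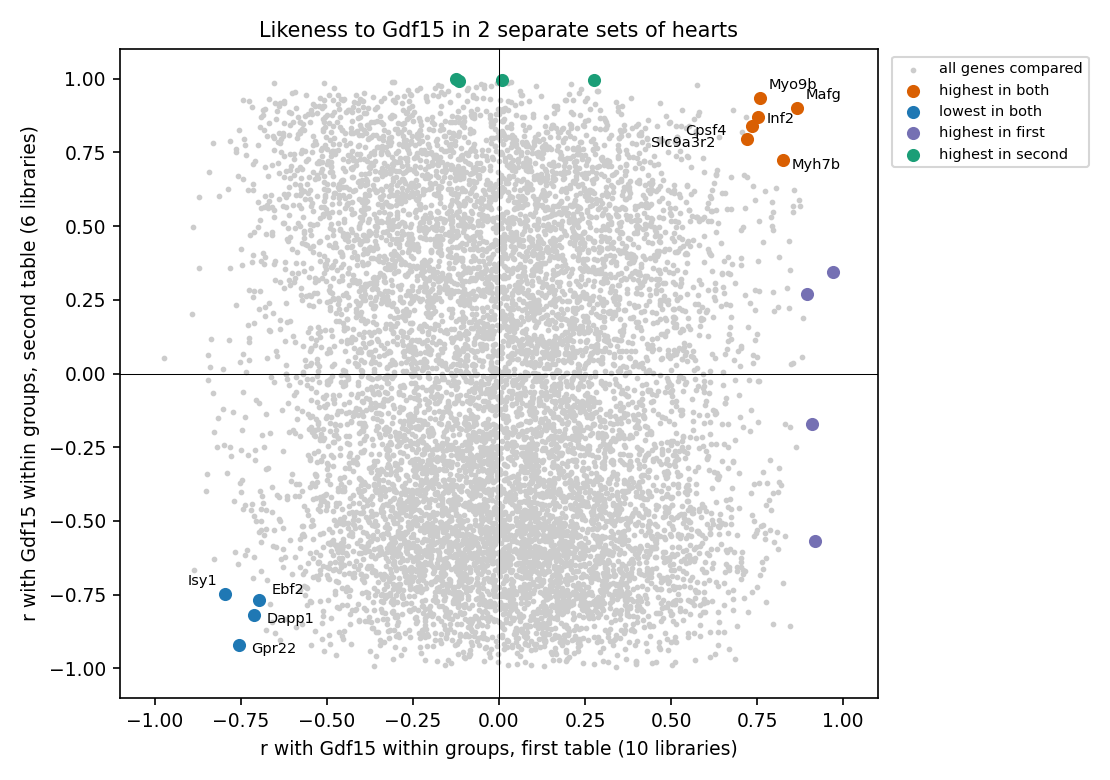
Pearson's r with Gdf15 after removing group means, in the first table (x axis, 10 hearts) and the second (y axis, 6 hearts); each grey point is one of 9721 genes and coloured points are the named genes. Mafg (0.87 and 0.90) stands at the upper right, the named genes highest in the first table alone lie at -0.57 to 0.34 in the second, and those highest in the second alone at -0.13 to 0.28 in the first.

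The same r was read for the pathway lists. The 21 ATF4 targets among these genes had a median r of -0.13 in the first table and -0.06 in the second, and 6 and 9 of them had an r above 0. Atf4 itself had r of 0.28 and 0.91, and in the second table -0.14 without the 2 farthest hearts. The 14 secreted factors had a median r of -0.21 in the first table and 0.70 in the second, where 13 of 14 were above 0. Cilp was at -0.47 and 0.94, and without the 2 farthest hearts at -0.81 and -0.05. In the second table double KO 1 was the highest heart for Gdf15 and Cilp (396 CPM against 63.3 and 78.6 CPM in the other double KO hearts) and single KO 2 was highest in its group for both (232 CPM against 68.9 and 81.6 CPM). Double KO 1 was the highest of its group in 40.1% and the lowest in 40.7% of all genes tested.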

How the data were processed

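Total RNA of mouse hearts was extracted on silica columns, treated with DNase and sequenced after ribosomal RNA depletion with a stranded kit, per the labels' protocols. The submitters' processing notes name bcl2fastq, HISAT2, DESeq2 1.42.0 and the mm10 assembly; no source used here gives the counting program or whether it used strand. The authors deposited raw counts per gene in 2 tables, which were used as deposited. The first lists 14138 genes with at least 151 counts in total and includes 27 mitochondrially encoded genes. The second lists 17831 genes and none of these; a single unnamed row (1 row) was dropped. Each table was fitted alone with edgeR 4.0.16 (filterByExpr, TMM, quasi-likelihood test) in R 4.3.3, with Benjamini-Hochberg adjustment over all genes tested and a threshold of 0.05. CPM use TMM-scaled library sizes. Log2 CPM for r use a prior count of 2, and genes for r had an average log2 CPM of at least 1 in both tables, leaving out predicted, mitochondrially encoded and sex-linked genes. Scripts were tested on simulated data.

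Gdf15, the gene lists and the tests were chosen with earlier results of these data known. Named are up to 4 members of each list with the smallest p, the genes most and least like Gdf15 by r, and its neighbours. Ddit3, Trp53, Atf3, Eif2ak1, Dele1, Trib3, Slc7a5, Chac1, Aars, Cdkn1a, Nfe2l2 and Postn, and in the second comparison Atf4 and Cilp, were named after their values were seen, as were members given because they complete a count. Labels call the samples biological replicates; no litter, batch or day is given, so p-values reflect only the spread among these hearts, which may be technical in part. No 2 libraries of a group agreed within sampling noise. Alternatives were other scalings, no low-count filter, DESeq2 1.42.0, limma-voom (limma 3.58.1), a replicate block, an atrial covariate, a sex term from Y-linked counts and the removal of each library. Positions are from GENCODE M21 and promoter sequences from RefSeq (GRCm38.p6). Hearts lacking USP30 alone, and protein sequences, were not analysed here.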

Additional observations from a re-analysis of the deposited data

Results flagged for a closer look

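Of 58 gene and group pairs examined, 8 had 1 heart apart from the other 4 by more than 0.71 of the group's range, where chance gives about 1 in 20. Wild type 5 accounted for 6 of them: Gdf15 at 1.322 CPM, Myo9b at 31.58 CPM, Inf2 at 6.973 CPM, Cpsf4 at 4.428 CPM, Myh7b at 43.51 CPM and Dele1 at 55.83 CPM, the last being low and the others high. Myo9b, Inf2, Cpsf4 and Myh7b were chosen for following Gdf15, so their high value in that heart is partly set by the choice. Wild type 5 was the highest of its group in 27.8% and the lowest in 26.6% of all genes tested, and its proliferation markers summed to 30.4 CPM against 7.94 to 13.6 CPM in the other 4 control hearts. Without wild type 5 the log2 fold change of Gdf15 in CPT2H-KO hearts was 5.79. In CPT2H-KO hearts, Chac1 stood apart at 13.81 CPM in number 5 and Cpt2 at 30.43 CPM in number 1.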

How the results depend on the processing

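Gdf15 was 5.02 to 5.79 higher on the log2 scale in CPT2H-KO hearts over 19 alternatives, and 0.11 to 1.95 higher, never past the threshold, over 14 alternatives of the second comparison. The genes called in CPT2H-KO hearts (4758) numbered 3103 with the atrial covariate and 3682 to 4787 without 1 library. Scaling by library totals shifted the median of all genes by -0.26 and moved the split from 2360 higher and 2398 lower to 827 and 4832; Eif2ak3, Ppp1r15b, Pcsk5 and Mafg were then not called, and Furin and Gfra1 were called lower. The list members called there (60) ranged from 50 to 67. In the second comparison DESeq2 called 123 genes, the replicate block 1, the atrial covariate 50, and removal of 1 library 0 to 114 (4 without single KO 3, 114 without double KO 1), with 0 to 1 list members. Signs turned for genes that were not called: Pgpep1 (0.12; -0.13 with library totals, -0.39 with the atrial covariate, -0.039 to 0.30 without 1 heart), Trp53 (-0.12 and -0.083 under the same scaling and covariate) and Eif2ak1 (-0.18 with library totals). In the second comparison they turned for Cpt2 (-0.018 to 0.066), Atf4 (-0.019 to 0.29) and Cilp (-0.85 to 1.25) without 1 library. Among correlations of at least 0.5 in size, signs turned without the 2 farthest hearts for Cpsf4 (-0.15 and -0.22), Myo9b (-0.026), Myh7b (-0.37), Slc9a3r2 (-0.10) and Ebf2 (0.67), and for Atp11a without 1 library (-0.93 to 0.32). Smaller ones turned in the second table for P4ha2 (-0.67 to 0.95 over the alternatives), Tbc1d9 (-0.86 to 0.72) and Ammecr1l (-0.44 to 0.59). In the first table they turned for Slc35a2 (-0.27 to 0.46), Imp4 (-0.33 to 0.25), Dpp3 (-0.58 to 0.069) and Slc37a1 (-0.86 to 0.074). The cause was not tested. Replicate numbers did not pair the samples: same-numbered hearts had correlated deviations of -0.09 to 0.23 and -0.21 to 0.17. With the replicate block Gdf15 was at 5.38, and at 0.72 in the second comparison (edgeR adjusted p = 0.742). Leaving out mitochondrially encoded genes applied to the first table only. Depth limits wild type Gdf15 most, at 25 to 80 counts a heart.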
